A study of Bos grunniens with 18 samples.

Results

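Circular RNAs (circRNAs) are closed RNA rings made when the splicing machinery joins a downstream splice donor to an upstream splice acceptor, a step called back-splicing. Most are built from exons of protein-coding genes, and a smaller class arises between annotated genes, from transcripts that the annotation does not hold or from the unannotated ends of known genes. Without a free end they resist exonucleases, and the testis is known as a tissue rich in circRNAs and in transcription outside annotated genes. Intergenic circRNAs carry no host gene name, so they are easily passed over when circRNAs are described by their hosts.

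The members described here are all circRNAs of yak (Bos grunniens) testis that the authors' deposited circRNA table annotates as intergenic. They number 6967 of 73679 circRNAs, or 9.46%. The other classes of the table are circRNAs of several exons (49441), of exon and intron (13777), of 1 exon (1245), of introns (1132) and antisense to a gene (1117). The samples were testes of 9 healthy male yaks, 3 animals at each of 6 months, 18 months and 4 years, removed by castration and frozen. The labels name no strain, genetic change or drug treatment that differs between the ages. Total RNA was depleted of ribosomal RNA and sequenced in paired ends, and small RNA was sequenced in a second library for each animal. A stage tag in the labels (infancy, adolescence, adulthood) contradicts the ages in the titles, so the ages were taken from the titles and the sampling protocol.

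A library held between 119786 and 227150 circRNA reads, and its gene table between 22.95 M and 33.12 M estimated counts (M for 1000000). Marker genes of testis cell types differed between the ages. The summed level of 10 germ cell markers was 17.1 to 34.3 counts per 1000000 gene counts (CPM) at 6 months, 457.5 to 2536.0 at 18 months and 2608.1 to 3201.1 at 4 years. The sum of 5 Sertoli cell markers was 4811.4 to 5451.0, then 379.1 to 1197.9, then 314.8 to 367.9 CPM. The sum of 5 Leydig cell markers was 14945.8 to 21601.2, then 2531.5 to 5816.8, then 2408.0 to 4325.8 CPM, and that of 5 genes of peritubular, interstitial and endothelial cells was 1020.9 to 1384.3, then 246.5 to 739.6, then 280.5 to 293.0 CPM. In the leukocyte and erythrocyte list the rows of HBA and HBB stood at 0 in all libraries, and the summed level of the list was 33.0 to 106.2 CPM. The 3 matched genes of the epididymis and rete testis list summed to 1.99 to 5.33, 31.5 to 83.1 and 88.4 to 94.4 CPM at the 3 ages. CPM is a share of all gene counts. In these bulk samples, fewer cells of a type, less RNA per cell and more RNA from other cells cannot be told apart. The part of cell makeup in the results below was not tested.

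Intergenic circRNAs are mostly rare. Their median read total over the 9 libraries was 3, and 2514 of them (36.1%) had 2 reads in all, the fewest that any circRNA in the table has. Of the circRNAs of all other classes, 29.6% had 2 reads, with 27% of multi-exon, 36.9% of exon and intron, 38.7% of antisense and 48.0% of intronic circRNAs, so this rarity is shared with the last 3. Only 1282 members had 10 reads or more and 105 had 100 or more. Reads in exactly 1 library were found for 4482 members, 64.3% against 55.2% of all circRNAs, and 48 members (0.689%, against 3.08%) had reads in every library. Within a library, a detected intergenic circRNA had a median of 3 reads, and 36.8% to 44.9% of those detected had 1 or 2. The mean number of reads per detected circRNA was lower for the intergenic class than for the other classes in 9 of 9 libraries. The log2 ratio of these means was -0.479 ± 0.194 (SD, n = 9), a 0.718-fold level, with an exact sign-flip permutation p of 0.00391, the smallest this design allows, and an adjusted p of 0.0176. The adjustment covers the family of 9 tests on library values used throughout.

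Their genomic spans are wide and skewed to the short end. The genomic span is the distance between the 2 joined ends. Its median was 10071 bases over the members (quartiles 3032 and 25088, range 137 to 99523) and 12847 bases over the other classes (quartiles 5387 and 25953). Spans under 1 kb made up 10.9% of the members (761) and 4.73% of the others. By class the share was 2.45% for multi-exon, 3.02% for exon and intron, 9.40% for antisense, 34.2% for intronic and 83.3% for 1-exon circRNAs. The antisense class was thus much like the intergenic one, with a median span of 11440 bases. The listed length of every member equals its genomic span. The same was true of 100% of antisense, intronic and 1-exon circRNAs, so this is not particular to the class. It was true of 20.7% of exon and intron circRNAs and of none of those made of several exons. Over all circRNAs outside the intergenic class the share was 9.51%. For intergenic circRNAs the listed length is therefore the distance between the ends and holds no information on introns that may have been removed. Weighted by reads, the median span was shorter for intergenic circRNAs than for the other classes in 9 of 9 libraries. The mean log2 ratio was -0.298 ± 0.158 (SD, n = 9), with a range of -0.546 to -0.0941 (exact sign-flip permutation p = 0.00391, adjusted p = 0.0176). In the plot of span by class the intergenic box reaches lower than the box of multi-exon circRNAs and higher than the boxes of the 1-exon and intronic classes.

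**Figure D1:**
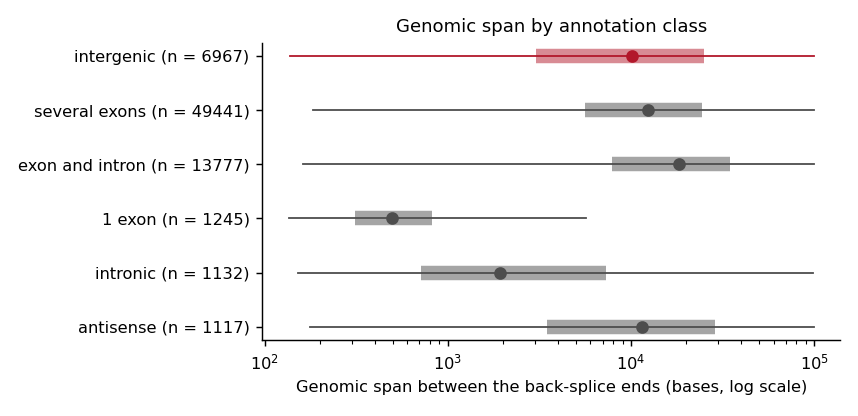
Genomic span in bases (log axis) for the 6 annotation classes. Points are medians, thick bars the quartiles and thin lines the full range over circRNAs; the intergenic median is 10071 bases and its lower quartile 3032.

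The members lay on all 29 autosomes and on X, with 3390 on the plus and 3577 on the minus strand. Chromosome X held most (400), followed by chromosomes 5 and 7 with 358 each, 8 with 349 and 9 with 327, and chromosome 24 held fewest (100). As a share of the circRNAs of a chromosome, chromosome 27 stood highest with 19.5% (237 of 1214), and X followed with 18.6% (400 of 2149). The lowest shares were 5.45% on chromosome 3 and 5.5% on chromosome 11. Per megabase, up to the largest coordinate that carries a circRNA, chromosome 27 had 5.26 members and chromosome 24 had 1.62. X had 2.88 members per megabase, within the range of the autosomes.

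Intergenic circRNAs occurred in groups that share ends. Joining members that overlap on 1 strand gave 3452 clusters. Of these, 2291 held a single circRNA, 882 held 2 to 4, and 279 held 5 or more, up to 39. The clusters of 5 or more contained 2422 members (34.8%). A start or end was shared with another intergenic circRNA for 4002 members (57.4%), and with a circRNA of another class for 586 (8.41%). The gene models of the build are not used here, so nearness to genes was judged from 9977 genes that have circRNAs of their own, each taken to reach from its first to its last circRNA end. By this measure 1033 members (14.8%) overlapped such a gene extent, 996 of them on its strand, and 3180 (45.6%) lay over 100 kb from the nearest one, with a median distance of 83.3 kb. A gene that forms no circRNA is not seen by this measure.

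Intergenic circRNAs took a larger share of circRNA reads in the older testes. At 6 months the share was 3.23%, 3.63% and 3.48% in the 3 animals. At 18 months it was 7.40%, 4.06% and 5.19%. At 4 years it was 7.36%, 7.08% and 7.08%. Every 6-month library lay below every older library, and the 18-month libraries spread from near the 6-month level to the 4-year level. The 95% Wilson interval of a single library was widest in 4-year replicate 3, at 6.94% to 7.23%. The 4-year animals differed by no more than about the width of this interval, and the 18-month animals by far more. The means were 3.44 ± 0.201%, 5.55 ± 1.70% and 7.18 ± 0.159% (SD, n = 3 each; exact permutation test over the 3 ages, two-sided, p = 0.0143, adjusted p = 0.0214). Pairwise exact tests of 3 against 3 cannot go below p = 0.10, which both comparisons with 6 months reached; 4 years against 18 months gave an exact p of 0.400. With 8 libraries the adjusted p rose above the threshold when any 6-month library or 4-year replicate 1 or 3 was left out, to between 0.0522 and 0.0643, while the difference between 4 years and 6 months stayed between 3.62 and 3.82 percentage points.

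The 18-month animals were ordered alike in this share and in the germ cell markers. Replicate 1 had 7.40% and 2536.0 CPM of the 10 germ cell markers, replicate 3 had 5.19% and 1321.6 CPM, and replicate 2 had 4.06% and 457.5 CPM. The part of germ cell number in the share was not tested. The rise was not particular to this class. From 6 months to 4 years the share of antisense circRNAs went from 0.331% to 0.440% up to 1.27% to 1.34%, and that of exon and intron circRNAs from 8.25% to 8.92% up to 12.7% to 13.3%, also without overlap, while multi-exon circRNAs went from 82.3% to 83.1% down to 74.4% to 75.2%. Set against gene reads instead of circRNA reads, there were 200.6, 231.0 and 178.1 intergenic reads per 1000000 gene counts at 6 months. There were 473.7, 375.7 and 374.2 at 18 months and 415.2, 420.9 and 369.7 at 4 years. On this scale, too, the 6-month libraries lay below all others, and the 18-month and 4-year libraries overlapped.

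More different intergenic circRNAs were found in the older testes at equal depth. Thinned to the 119786 circRNA reads of the smallest library, the expected numbers were 712, 968 and 725 at 6 months. They were 1857, 1387 and 1545 at 18 months, and 1671, 1862 and 1547 at 4 years. The 6-month libraries stood apart below the others, and the older ages overlapped. The means were 802 ± 144, 1596 ± 239 and 1693 ± 158 (SD, n = 3 each; exact permutation p = 0.0179, adjusted p = 0.0230). As a share of all circRNAs expected at that depth, the class made up 5.02 ± 0.617%, 7.76 ± 1.12% and 8.69 ± 0.212% (SD, n = 3 each; exact permutation p = 0.0143, adjusted p = 0.0214). That share missed the threshold without 6-month replicate 1 (adjusted p = 0.0643 by the exact permutation test).

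The most abundant members held less, and the larger clusters more, of the intergenic reads in the older testes. The 10 most abundant members held 24.2%, 22.8% and 24.8% of intergenic reads at 6 months, 17.6%, 15.8% and 13.6% at 18 months, and 17.7%, 18.1% and 9.44% at 4 years (exact permutation p = 0.0357, adjusted p = 0.0402). Clusters of 5 or more members held 43.0%, 39.1% and 39.6% of intergenic reads at 6 months, 49.5%, 43.5% and 51.8% at 18 months, and 51.6%, 50.8% and 55.9% at 4 years (exact permutation p = 0.0143, adjusted p = 0.0214). In both, the 6-month libraries did not overlap the rest. The 10 members and the clusters were picked from these same 9 libraries, so both tests describe lists drawn from the tested values. The 6-month libraries had fewer members, so groups of members read at the older ages reach 5 more easily. How much of the cluster result comes from this was not tested. Both results missed the threshold without a single X-linked circRNA, novel_circ_072521, which is described below, and without some single libraries: each of the 6-month replicates for both, 18-month replicate 2 for the former and 4-year replicate 3 for the latter (adjusted p up to 0.0924). The read-weighted median span of the members was 7568 ± 856, 8800 ± 399 and 9416 ± 1108 bases (SD, n = 3 each) and did not pass the test (exact permutation p = 0.0643, adjusted p = 0.0643).

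**Figure D2:**
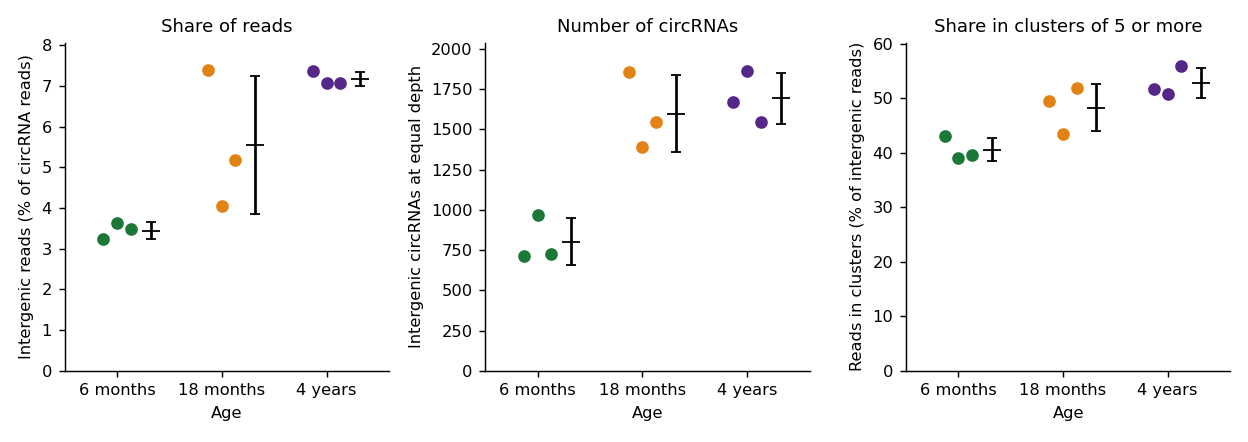
Share of circRNA reads that are intergenic (%), number of intergenic circRNAs expected at equal depth, and share of intergenic reads in clusters of 5 or more members (%), by age. Each point is 1 animal and the bar is the mean ± SD (n = 3). The 6-month animals lie below all older animals in each panel. Clusters were defined from the same 9 libraries.

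For single circRNAs, a test across the whole table was possible for 201 members (2.89%), those with enough reads for edgeR's expression filter. They held 48.4% of intergenic reads and had a median span of 8341 bases. Among all circRNAs 3877 of 73679 (5.26%) passed. The filter can be passed through 1 age alone, so the counts below are read against all 3877 circRNAs tested and not as a statement on all members. Levels of single circRNAs are given as CPM, here reads per 1000000 reads on tested circRNAs with TMM scaling, and differences as log2 fold changes ± SE of edgeR's quasi-likelihood fit with Benjamini-Hochberg adjustment.

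At 4 years against 6 months, 95 of the 201 tested members were called at an adjusted p under 0.05 (47.3%). At 4 years 83 were higher and 12 were lower. Of all circRNAs tested, 21.0% passed, 15.2% higher and 5.80% lower. The share of members that fell was near this background. The share that rose was 41.3%, but 61 of the 201 (30.3%, against 7.35% of all tested) had no read at 6 months and could pass the expression filter only through the later ages, so these shares are a description. The median log2 fold change was 3.18 over the tested members and 0.16 over all circRNAs tested. The members' median was the same when members with no read at 1 age were set to their bound. With no filter on low counts both medians were 0.00, and with at least 10 reads and 3 libraries they were 3.21 and 0.34. The 83 that rose came from 65 clusters on 24 chromosomes, and 52 of them had no read in any 6-month library. Groups did not overlap, with 4 years higher, for 115 members (57.2%, against 28.2% of all tested), and with 4 years lower for 26 (12.9%, against 21.3%). Without 1 library the 95 became between 35 of 298 tested members, without 6-month replicate 1 (325 of 5138 circRNAs tested), and 138 of 288, without 18-month replicate 2 (1092 of 4938). It was 61 and 40 without 6-month replicates 2 and 3, and 57, 56 and 54 without 4-year replicates 1, 2 and 3.

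The split depends on what circRNA reads are set against. Scaled by gene reads, the higher share of all called circRNAs went from 72.4% to 48.7%, and that of called members from 87.4% to 78.6%, of 84 called (66 higher). The median of all circRNAs tested moved from 0.16 to -0.59 with this scaling, and the median of the members from 3.18 to 2.46. The members' median was the higher of the pair on both scales, which is a description only. As reported, 61 of the 201 tested members had no read at 6 months and could pass the filter only through later ages. With no filter on low counts both medians were 0.00.

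At 18 months against 6 months, 26 of the 201 tested members passed (12.9%), 25 higher and 1 lower, where 5.26% of all circRNAs tested passed, 4.72% higher and 0.542% lower. The median log2 fold change was 2.55 over the members (2.36 with members of no read at 1 age at their bound) and 0.21 over all. It depended on the filter and fit. The medians were 0.43 and 0.00 with no filter on low counts, and 0.43 and -0.02 with only the 2 ages fitted. With at least 10 reads and 3 libraries they were 2.62 and 0.57. Groups did not overlap, with 18 months higher, for 73 members (36.3%, against 18.7%), and with 18 months lower for 18 (8.96%, against 13.4%). This count rests on few animals. It was 0 without 6-month replicate 1, 15 and 5 without 6-month replicates 2 and 3, and 10, 75 and 5 without 18-month replicates 1, 2 and 3. It was 13 and 8 without 4-year replicates 1 and 3.

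At 4 years against 18 months no member passed, and none of the 3877 circRNAs tested did (0%). DESeq2 called 0 members as well, but 42 of the 3877 circRNAs tested, all of other classes. At an unadjusted p under 0.05 there were 20 members (9.95%, against 7.69% of all tested). Groups did not overlap, with 4 years higher, for 40 members (19.9%, against 10.4%), and with 4 years lower for 8 (3.98%, against 8.72%). The median log2 fold change was 0.55 over the members and 0.04 over all. With no filter on low counts both medians were 0.00, and with at least 10 reads and 3 libraries they were 0.29 and -0.17. The comparisons with 6 months share the 6-month libraries, so they are not independent of each other.

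**Figure D3:**
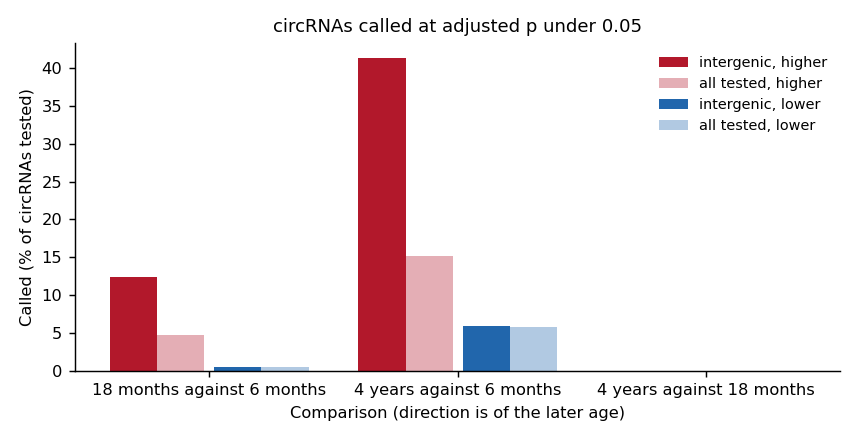
Percentage of tested circRNAs called at an adjusted p under 0.05 by edgeR, for the 201 tested intergenic circRNAs (full colour) and for all 3877 tested (pale), by comparison and direction. The bar of intergenic circRNAs higher at 4 years than at 6 months is 41.3%, against 15.2% of all tested.

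The most abundant member was novel_circ_035039, 1123 bases on the minus strand at chr22:52413524-52414646. It lay 33.8 kb from the extent of KIF9, a kinesin of cilia and sperm flagella, on the opposite strand. Its reads were 46, 85 and 32 at 6 months, 1286, 260 and 382 at 18 months, and 1138, 1563 and 172 at 4 years. The 6-month animals were the lowest, and 4-year replicate 3, at 2343.0 CPM, lay within the range of the 18-month animals. Its level was 477.5 ± 214.6, 5543.8 ± 5650.7 and 10008.5 ± 6720.0 CPM (SD, n = 3 each). The log2 fold change was 4.39 ± 0.92 at 4 years against 6 months (adjusted p = 0.0139 with edgeR) and 3.53 ± 0.89 at 18 months (adjusted p = 0.0483). The 18-month call held in 1 of 9 fits that left out a library and the 4-year call in 8 of 9, with an adjusted p of 0.0511 without 6-month replicate 1. This single circRNA made up 74.6% of the intergenic reads of chromosome 22.

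Other abundant members had few or no reads at 6 months and rose at the later ages. novel_circ_019593 spans 25286 bases at chr17:35259172-35284457 on the minus strand and overlaps the extent of ADAD1, a testis RNA-binding protein of germ cells, on its strand. Its reads were 9, 28 and 8 at 6 months, 192, 85 and 196 at 18 months, and 252, 241 and 141 at 4 years. Every 6-month value lay below every later one. Its log2 fold change at 4 years against 6 months was 4.14 ± 0.67 (adjusted p = 0.00810), and it stayed called when any 1 library was left out. ADAD1 itself changed by a log2 fold of 6.51 in the gene table (adjusted p = 9.32e-05 with edgeR), in a comparison in which 73.9% of genes tested passed.

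novel_circ_041590, 11033 bases at chr27:12765946-12776978 on the plus strand, had no read at 6 months. It had 155, 34 and 84 reads at 18 months and 198, 181 and 89 at 4 years. Against a floor of 3 reads over the 6-month group it was at least 77.5-fold higher at 18 months (adjusted p = 0.0149 with edgeR) and at least 195.8-fold higher at 4 years (adjusted p = 0.00598). The nearest gene with circRNAs, TENM3, which encodes a teneurin adhesion protein, lay 542.4 kb away.

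novel_circ_067069, 12892 bases at chr8:47343804-47356695 on the minus strand, was likewise at 0 in the 6-month libraries. Its reads were 48, 20 and 72 at 18 months and 201, 103 and 116 at 4 years, and the older ages did not overlap in CPM. It was at least 39.7-fold and at least 175.7-fold higher than at 6 months (adjusted p = 0.0150 and 0.00556 with edgeR). The difference between 18 months and 4 years did not pass (adjusted p = 0.509).

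Further members rose close to, or inside the extent of, a gene that rose too. novel_circ_022134 (chr18:40018508-40027823, plus strand) starts 3.92 kb from the extent of HYDIN, a component of the central pair of motile cilia, on the same strand. It had no read at 6 months, 66, 15 and 41 at 18 months, and 61, 106 and 55 at 4 years, at least 92.9-fold higher at 4 years (adjusted p = 0.00656 with edgeR). HYDIN changed by a log2 fold of 5.42 (adjusted p = 6.91e-05). novel_circ_039529 (chr25:28570662-28584231, plus strand) overlaps CALN1, which encodes a calcium-binding protein. It had no read at 6 months, 74, 22 and 32 at 18 months, and 34, 64 and 58 at 4 years, at least 65.3-fold higher at 4 years (adjusted p = 0.00750). CALN1 changed by a log2 fold of 4.28 (adjusted p = 4.39e-05). Without 6-month replicate 1 the 18-month calls of novel_circ_041590, novel_circ_067069, novel_circ_022134 and novel_circ_039529 were lost (adjusted p 0.0515 to 0.0663), and their 4-year calls held without any 1 library.

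Shared direction with the nearest gene was not general. Of the 95 members called at 4 years against 6 months, the nearest circRNA-bearing gene was tested for 82 (68 genes), and 53 of these 82 had the same sign. Over all 201 tested members, called or not, it was 106 of 165, a like share. Within 100 kb of the gene extent the count was 33 of 43 called members. The matching count over all tested members within that distance was not made, so no contrast with it can be drawn. Across the 82 members the Spearman correlation of the log2 fold changes was 0.19, and across the 43 it was 0.30. These are descriptions over members that share genes and libraries.

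Of the other abundant members, novel_circ_008570 (2141 bases, chr12:35266602-35268742) rose at 4 years against 6 months, with a log2 fold change of 3.42 ± 0.69 and 6 to 23 reads per library at 6 months against 71 to 135 at 4 years (adjusted p = 0.0133). novel_circ_035720 (23275 bases, chr23:14716-37990) had 0 to 9 reads at 6 months and 71 to 102 at 4 years, with a log2 fold change of 4.47 ± 0.96 (adjusted p = 0.0145, and 0.0521 without 6-month replicate 3). novel_circ_071398 and novel_circ_065051 passed in no comparison, but scaled by gene reads the former passed at 4 years against 6 months (log2 fold change -1.51, adjusted p = 0.0488 with edgeR, against -0.80 and 0.213). The former had 182 to 252 reads at 6 months, 188 to 378 at 18 months and 66 to 116 at 4 years. The latter had 62 to 107, 44 to 169 and 23 to 87. Both thus had reads in all 9 libraries, unlike the members that first had reads at 18 months.

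Among the members called higher at 18 months, 3 had a lower estimate at 4 years than at 18 months, though no such difference passed. They were novel_circ_072646 and, named after their values were seen, novel_circ_072032 (log2 fold change -0.65 at 4 years against 18 months) and novel_circ_027221 (-0.36). novel_circ_072646 (chrX:3508357-3522769, minus strand) had no read at 6 months, 17, 36 and 35 at 18 months, and 18, 5 and 7 at 4 years. It was at least 25-fold higher than 6 months at 18 months and at least 12.5-fold higher at 4 years (adjusted p = 0.0218 and 0.0133 with edgeR). The 18-month call was lost without 6-month replicate 1 or 3 or 18-month replicate 3 (adjusted p up to 0.0745).

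Members that fell were fewer and included abundant ones. novel_circ_072521 is 1698 bases on the plus strand at chrX:24310534-24312231. It overlapped no other intergenic circRNA on its strand. It had 433, 320 and 372 reads at 6 months, 5, 8 and 0 at 18 months, and 15, 19 and 8 at 4 years. The 3 ages did not overlap in CPM, and 18 months was the lowest. Its level was 3372.2 ± 566.9, 32.5 ± 28.2 and 152.9 ± 38.5 CPM (SD, n = 3 each). The log2 fold change was -6.65 ± 0.90 at 18 months against 6 months (adjusted p = 0.0149) and -4.45 ± 0.80 at 4 years (adjusted p = 0.0106). It was the only member called lower at 18 months. That call was lost without 6-month replicate 1 (adjusted p = 0.0515), and the 4-year call held without any 1 library.

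The authors' deposited table of the 18-month comparison lists predicted miRNA partners for each circRNA, 46 for novel_circ_072521. Of these, 27 have counts in the deposited small RNA table. The mature sequences of the 4 with most counts and of miR-671 are shown because they are the letters on which such a prediction rests. miR-671 was added after its values were seen. The sequences are as deposited, 5′ to 3′ with T for U, and capitals mark the seed, bases 2 to 8, which a miRNA pairs with its targets.
bta-miR-507b: tGATTGGTacttcttagagtgga
bta-miR-154c: aGATATTGcacggttgatctct
bta-miR-6120-3p: tATGTTGGacaacgtggatagc
bta-miR-7: tGGAAGACtagtgattttgttgtt
bta-miR-671: aGGAAGCCctggaggggctggag

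No 2 of these 5 share a seed. In the small RNA libraries bta-miR-7 had 20.3, 15.8 and 18.7 counts per 1000000 miRNA counts at 6 months, 121.4, 36.2 and 39.1 at 18 months, and 85.9, 100.4 and 118.9 at 4 years. It was lowest in the 6-month animals. bta-miR-671 had 1.94, 1.55 and 2.01 at 6 months and at most 1.18 in any later library. These levels rest on 16, 15 and 16 raw counts at 6 months and 4 to 6 in each later library. By counts bta-miR-671 ranked 17 among the 27. The other 3 went both ways. The level of bta-miR-507b was 102.5 ± 5.99, 1572.8 ± 1369.5 and 3147.7 ± 542.1 counts per 1000000 at the 3 ages (SD, n = 3 each). That of bta-miR-6120-3p was 90.2 ± 4.25, 164.6 ± 92.4 and 301.9 ± 29.5, and that of bta-miR-154c was 504.6 ± 33.8, 256.9 ± 78.0 and 152.8 ± 36.4. These levels were not tested here. The same table lists bta-miR-7 for 283 and bta-miR-671 for 300 of its 1841 circRNAs, so neither is particular to this member.

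Predicted partners were many for most intergenic circRNAs in that authors' deposited table. The median number was 421 (range 18 to 945, n = 205) for intergenic circRNAs and 47 (n = 1636) for the others. Across the 205 intergenic circRNAs, the number followed the listed length with a Spearman correlation of 0.99. Across the 1636 others the correlation was 0.92, so this is not particular to the class. For intergenic circRNAs the listed length is the whole span between the ends. The 1698-base novel_circ_072521 with 46 and the 1123-base novel_circ_035039 with 77 are short beside the median listed length of the 205, 9031.0 bases; that of the others was 669.0 bases.

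**Figure D4:**
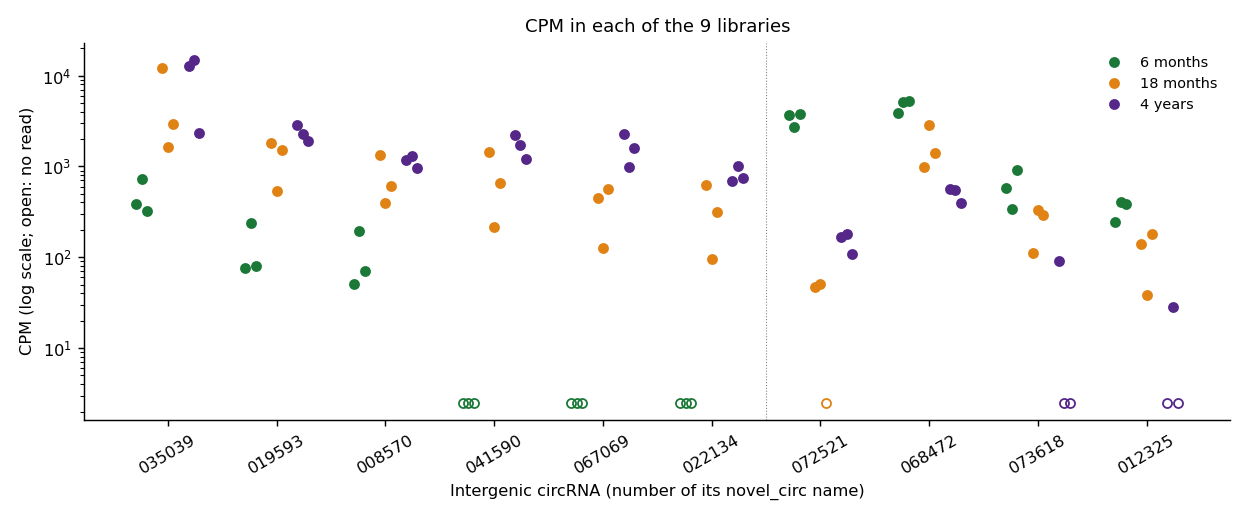
CPM in each of the 9 libraries (log axis) for 10 named intergenic circRNAs, coloured by age; open circles at the base are libraries with no read. The 6 left of the dotted line were lowest at 6 months, and the 4 to its right were highest at 6 months.

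novel_circ_068472 was the second most abundant member. It spans 11041 bases at chr8:91265345-91276385 on the minus strand, 1.75 kb from the extent of RNF20, a ubiquitin ligase of histone H2B, on the opposite strand. It had 456, 601 and 522 reads at 6 months, 106, 451 and 179 at 18 months, and 50, 58 and 29 at 4 years. The ages did not overlap in CPM and each was below the one before. The log2 fold change was -3.23 ± 0.49 at 4 years against 6 months (adjusted p = 0.00658), held without any 1 library, and -1.44 ± 0.45 at 18 months (adjusted p = 0.0909, not passed).

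Other named members fell at 4 years against 6 months. novel_circ_012325 (4557 bases, chr14:13607698-13612254) had 29, 48 and 38 reads at 6 months and 0, 3 and 0 at 4 years, a ratio of 30.5 with a 95% counting interval of 10.2 to 150.3 (adjusted p = 0.0156 with edgeR, and up to 0.0545 without 4-year replicate 1 or 3). novel_circ_061350 (8511 bases, chr6:57885660-57894170) lies 77.9 kb from KLF3, a zinc-finger transcription factor, and had 39, 17 and 22 reads at 6 months and none at 4 years. It was at least 20.7-fold lower (adjusted p = 0.0226, and up to 0.0599 without 6-month replicate 1 or 3 or any 4-year replicate). novel_circ_073618 (1211 bases, chrX:95545284-95546494) had 68, 40 and 92 reads at 6 months and 8, 0 and 0 at 4 years, with a log2 fold change of -4.30 ± 1.22 (adjusted p = 0.0333, and up to 0.0858 without any 6-month replicate or 4-year replicate 2 or 3).

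Chromosome X held a smaller share of intergenic reads in the older testes. novel_circ_072521 made up 24.2% of its intergenic reads over the 9 libraries. The share was 14.6%, 11.7% and 14.7% at 6 months, 2.66%, 7.66% and 5.13% at 18 months, and 3.04%, 2.73% and 3.71% at 4 years. The 6-month libraries lay above all others, and the older ages overlapped. The means were 13.7 ± 1.70%, 5.15 ± 2.50% and 3.16 ± 0.505% (SD, n = 3 each; exact permutation p = 0.0143, adjusted p = 0.0214). Without novel_circ_072521, an alternative chosen after the data were seen, the shares were 7.22 ± 0.397%, 5.11 ± 2.48% and 3.04 ± 0.526%. The test then did not pass (exact permutation p = 0.0750, adjusted p = 0.0964), while the 6-month libraries (6.80% to 7.58%) still lay above those at 4 years (2.59% to 3.62%). In 18-month replicate 2, which had the fewest germ cell marker counts of its age, X held 7.58% of the remaining reads.

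**Figure D5:**
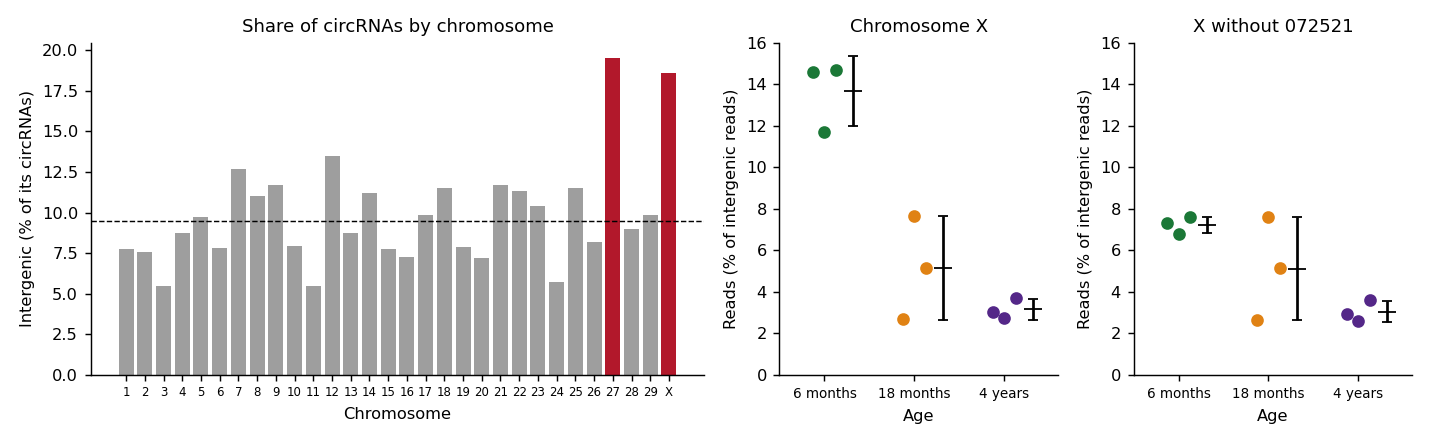
Left, intergenic circRNAs as a percentage of the circRNAs of each chromosome, with the value for all chromosomes, 9.46%, as a dashed line. Middle and right, percentage of intergenic reads on chromosome X by age with and without novel_circ_072521, each point 1 animal and bars the mean ± SD (n = 3); the 6-month mean goes from 13.7% to 7.22% without it.

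Other chromosomes that hold an abundant member also changed their share of intergenic reads. Chromosome 22 went from 2.17% of intergenic reads at 6 months to 8.12% and 10.5%, and novel_circ_035039 made up 74.6% of its total. Chromosome 8 went from 14.4% to 7.47% and 6.30%, and novel_circ_068472 made up 35% of its total. No test was made per chromosome, and the shares without these circRNAs were not computed.

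The largest clusters showed both patterns, with age differences and without. Their fits sum the reads of a cluster before the test. The cluster with most members held 39 circRNAs over 154.1 kb on the minus strand of chromosome 13 (chr13:20075740-20229844), with 15 different starts and 16 different ends, and its leading circRNA overlaps the extent of CCDC7. Its reads were 7, 5 and 12 at 6 months, 155, 18 and 50 at 18 months, and 159, 181 and 214 at 4 years. It rose at 4 years against 6 months by a log2 fold of 4.77 ± 0.92 (adjusted p = 0.0107 with edgeR).

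A cluster of 32 circRNAs at chr5:24992556-25064007 on the minus strand, with its leading circRNA 60.0 kb from METAP2, had 3, 0 and 0 reads at 6 months. It had 131, 16 and 67 at 18 months and 144, 138 and 135 at 4 years (adjusted p = 0.0237 and 0.00803 against 6 months with edgeR). No 6-month animal overlapped a later one. Around novel_circ_019593 near ADAD1, 10 circRNAs summed to 300.5 ± 176.6, 2046.0 ± 940.4 and 3251.3 ± 182.1 CPM (SD, n = 3 each; log2 fold change 3.35 ± 0.56 at 4 years, adjusted p = 0.00760).

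Of the 5 largest clusters, 3 passed in no comparison with 6 months. The 36 circRNAs at chr14:13572379-13737672 summed to 1453.0 ± 833.8, 618.5 ± 208.7 and 738.4 ± 317.0 CPM (adjusted p = 0.188 at 4 years against 6 months). The 29 circRNAs at chr15:5291480-5395447, whose leading member lies 20.1 kb from DYNC2H1, a dynein of transport within cilia, summed to 190.2 ± 26.4, 182.1 ± 54.7 and 242.3 ± 45.9 CPM (adjusted p = 0.738). The 25 at chrX:106841298-107085280, whose leading member overlaps CFAP47, a protein of cilia and flagella, summed to 147.9 ± 47.7, 234.6 ± 90.3 and 194.1 ± 28.9 CPM (adjusted p = 0.725; SD and n = 3 throughout). These 3 clusters had reads in every library, as had the chromosome 13 cluster, which rose. The 36-member cluster holds novel_circ_012325, which fell, so 1 member and its cluster differ in their call.

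At the extremes of length, tested members of the same cluster could differ widely in span. novel_circ_039577, the shortest tested member, spans 213 bases, and novel_circ_039580 spans 83842 bases. Both lie on the minus strand of chromosome 25, have 30702118 as their lower coordinate and belong to a cluster of 21. The former had 2 reads at 6 months and 10, 20 and 9 at 4 years and did not pass (adjusted p = 0.109). The latter had 1 read at 6 months and 4, 17 and 11 at 4 years (ratio 40.2, 95% counting interval 6.71 to 1635.1, adjusted p = 0.0279 with edgeR, and up to 0.0943 without 6-month replicate 1 or 3 or 4-year replicate 2 or 3). The longest tested member, novel_circ_012318 with 96538 bases, had 60, 0 and 14 reads at 6 months, 17, 34 and 13 at 18 months, and 26, 0 and 2 at 4 years. It overlapped between all ages.

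Presence and absence were also counted over all 6967 members, without the expression filter. The counts come from the same libraries as the calls above and were not made at equal depth, so they are a description. Reads in all 3 libraries of 18 months and of 4 years and in none of 6 months were found for 69 members (0.990%, against 0.588% of all circRNAs). Reads in all 3 libraries of 4 years alone were found for 30 (0.431%, against 0.301%). For 18 months alone the number was 10 (0.144%, against 0.185%), and for 6 months alone it was 11 (0.158%, against 0.239%). A member with no read in the 3 libraries of an age can still be present below what these depths show.

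The authors' deposited tables of circRNA comparisons list 205 intergenic circRNAs among 1841 at 18 months against 6 months, 176 higher and 29 lower. They list 426 among 3962 at 4 years against 6 months, 343 higher and 83 lower, and 86 among 908 at 4 years against 18 months, 57 higher and 29 lower. The intergenic class thus made up 11.1%, 10.8% and 9.47% of the authors' deposited tables, against 9.46% of all circRNAs. Listed were 2.94%, 6.11% and 1.23% of intergenic circRNAs, against 2.50%, 5.38% and 1.23% of all circRNAs. These tables reach to an unadjusted p of 0.05, and the false discovery rate given there is under 0.05 for 12, 107 and 0 of the intergenic entries. All 26 and all 95 members called above are among those listed, with the same direction.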

How the data were processed

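Per the submitters' processing notes, fastp 0.18.0, HISAT2 2.1.0, StringTie 1.3.4 and the build UMD3.1 were used, with no role given. The circRNA caller is not given in the sources used here, and whether the coordinates follow that build could not be settled (chromosome 1 reaches 158496087), so coordinates are as the file gives them. The labels name no RNase R step. The authors' deposited circRNA table gives a count and an RPM value per library, and the counts were used. The deposited gene table holds estimated counts (rounded here), the deposited miRNA table counts, and the authors' comparison tables log2 ratios of group means with p-values and adjusted p-values, per the file headers.

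The counts of all circRNAs were fitted together with edgeR 4.0.16 in R 4.3.3 (filterByExpr, TMM, quasi-likelihood test, age as the only term, 9 libraries, 6 residual degrees of freedom), adjusted over all circRNAs tested; the code was tested on simulated data. Genes were fitted alike. Values per library were tested by exact two-sided permutation over 1680 groupings. Alternatives were library-size scaling, gene-read scaling, DESeq2 1.42.0, other filters, 2 ages alone, a replicate block, cluster sums and leaving out each library. Replicates are different animals at each age. Intervals and floors (3 reads over an age with none) cover counting error only. Reads in PCR-amplified libraries are not independent molecules.

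Named circRNAs are the 10 with the highest mean CPM, the 5 with the smallest p per comparison and direction (called, at least 2-fold, ages not overlapping), the 5 largest clusters by members and by reads, and the 2 longest and 2 shortest tested. The members and lists were chosen with earlier results of these data known. The gene models and sequence of the build were not used here.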

Additional observations from a re-analysis of the deposited data

How the results depend on the processing

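Members called at 18 months against 6 months numbered 26 as reported. They numbered 75 of 201 with DESeq2 (650 of 3877 circRNAs), 46 of 6967 with no filter on low counts (278 of 73679), 82 of 1132 with at least 10 reads and 3 libraries (470 of 18015), 58 of 235 with reads summed per cluster (254 of 3911), 0 with only the 2 ages fitted (0 of 3018), and 0 to 75 without 1 library. At 4 years against 6 months the 95 became 174 of 1132 with at least 10 reads and 3 libraries (1239 of 18015) and 35 to 138 without 1 library. At 4 years against 18 months the count of members stayed 0 under all alternatives run, while over all circRNAs it was 42 with DESeq2, 29 with no filter, 19 with at least 10 reads and 3 libraries and 1 without 18-month replicate 1. Testing fewer or more circRNAs is built into the filters; for the other changes the cause was not tested. The replicate numbers name different animals, and libraries of the same number did not deviate together (correlations -0.0211 to 0.00971). With the number as a replicate block 0, 14 and 0 members were called in the 3 comparisons, with fewer residual degrees of freedom.

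The rise of the intergenic share of reads at 4 years over 6 months was 3.62 to 3.82 percentage points without 1 library, that of the share of circRNAs at equal depth 3.42 to 4.02, and that of the cluster share 10.6 to 13.4. The change in the share of the 10 most abundant was -10.4 to -6.04 points. The difference in read-weighted median span (1276 to 2382 bases without 1 library) passed without the most abundant member (3071.3 bases, adjusted p = 0.0117 by the exact permutation test) and without 4-year replicate 2 (0.0234). Without novel_circ_072521, an alternative chosen after seeing the data, the changes in top-10, X and cluster share were -3.25, -4.18 and 9.17 points and passed no longer (adjusted p = 0.432, 0.0964 and 0.0750 by the same test). Signs were compared for the named members and the library values only. Among these, no result that passed changed sign. Some named members that did not pass did so without 1 library, such as novel_circ_039577 at 18 months against 6 months (2.90, as low as -2.63) and novel_circ_012318 (-0.45, as high as 1.18, and at 4 years -1.02, as high as 0.52). Depth limits the single-circRNA tests to 2.89% of members.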
